A study of Arabidopsis thaliana with 3 samples.

Results

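The 9 genes described here encode UDP-dependent glycosyltransferases (UGTs) of Arabidopsis thaliana: UGT73C1 (AT2G36750), UGT73C2 (AT2G36760), UGT73C3 (AT2G36780), UGT73C4 (AT2G36770), UGT73C5 (AT2G36800), UGT73C6 (AT2G36790), UGT73B4 (AT2G15490), UGT73B5 (AT2G15480) and UGT74E2 (AT1G05680). They were taken by their gene identifiers, and all 9 were found among the 33557 genes of both deposited tables. They were chosen by their FPKM ratios in the comparisons given here, so those ratios are a description and no test was made on them. RNA of whole seedlings, 11 days old, was sequenced after 4 h in MS liquid medium, to which 200 mM NaCl was added for the salt groups. The groups were untreated wild type, wild type given salt and the skip mutant given salt; for each gene the authors deposited 1 value per group, merged from 2 replicates. The skip mutant affects SKIP (AT1G77180), a spliceosome protein that also takes part in transcription, and the labels give neither its allele nor the ecotype. No untreated skip group was analysed here, so a different salt response in skip cannot be told apart from a difference that was there without salt.

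UGTs move a sugar from a UDP-sugar onto a small acceptor molecule, which makes the acceptor more soluble and often inactive, and they are a main step in the handling of foreign chemicals by plants. The same enzymes also act on hormones and on the plant's own phenolics. UGT73C5, also named DOGT1, glucosylates the fungal toxin deoxynivalenol and brassinosteroid hormones, and UGT73C6 acts on brassinosteroids and on flavonols. UGT73C1 and UGT73C5 can glucosylate cytokinins, UGT74E2 glucosylates the auxin precursor indole-3-butyric acid, UGT73B4 can conjugate the explosive TNT, and UGT73B5 is known from the response to bacterial infection. UGT74E2 is also a well-known marker of the nuclear response to disturbed mitochondria.

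The 6 UGT73C genes lie head to tail on the minus strand within 14.8 kb of chromosome 2 (chr2:15410376-15425129, RefSeq annotation of TAIR10.1), in the order UGT73C1, UGT73C2, UGT73C4, UGT73C3, UGT73C6 and UGT73C5. Each has 1 annotated exon, so their transcripts hold no annotated intron. UGT73B5 and UGT73B4 are neighbours on the plus strand of the same chromosome (chr2:6758430-6763501 for UGT73B5, with a model that runs on over UGT73B4, and chr2:6761635-6763500 for UGT73B4), and UGT74E2 lies on the minus strand of chromosome 1 (chr1:1703002-1704838). These 3 genes have 2 exons in their longest model. The coding sequences of the array are 79.2% to 91.4% identical, with UGT73C5 and UGT73C6 (91.4%) and UGT73C3 and UGT73C4 (91.3%) as the closest pairs. UGT73B4 and UGT73B5 are 92% identical to each other and 61.2% to 64% identical to the array, while UGT74E2 shares 59.4% to 61.4% with the other 8. The stretch of 132 coding bases that encodes the UDP-sugar-binding signature of plant UGTs is shown for the 2 close pairs, because it shows where these copies can be told apart. Capitals mark bases unlike UGT73C6 at the same place, 11 in UGT73C5, 27 in UGT73C3 and 26 in UGT73C4, and the last 2 differ from each other at 1 base.
UGT73C6: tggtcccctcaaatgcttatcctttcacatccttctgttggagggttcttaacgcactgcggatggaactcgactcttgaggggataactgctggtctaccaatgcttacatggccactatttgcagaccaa
UGT73C5: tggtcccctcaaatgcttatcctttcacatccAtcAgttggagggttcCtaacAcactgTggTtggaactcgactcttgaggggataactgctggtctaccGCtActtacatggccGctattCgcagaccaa
UGT73C3: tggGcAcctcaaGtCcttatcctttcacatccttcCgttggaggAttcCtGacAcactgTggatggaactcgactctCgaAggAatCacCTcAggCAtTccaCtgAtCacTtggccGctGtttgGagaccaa
UGT73C4: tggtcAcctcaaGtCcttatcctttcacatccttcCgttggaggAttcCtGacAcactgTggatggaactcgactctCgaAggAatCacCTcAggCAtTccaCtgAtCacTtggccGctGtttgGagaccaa

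Over whole transcripts, 7.86% of the 50-base stretches of UGT73C6 also occur in a locus elsewhere, which is UGT73C5, and the share was 6.76% for UGT73C5, 8.74% for UGT73C3 and 10.1% for UGT73C4. UGT73C1 (0.366%), UGT73C2 (0.317%) and UGT74E2 (0.645%) share almost nothing. UGT73B4 shares 18.5% with the longer UGT73B5 model that overlaps it. All of UGT73C6 lies under AT2G36792, a non-coding RNA annotated on the opposite strand. No source used here gives the strand setting of the libraries, and without it reads from UGT73C6 and AT2G36792 cannot be told apart.

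Values were read as FPKM, a unit inferred and not named by the authors' tables. FPKM divide a gene's fragments by the length of its transcript and by the size of the library, and can be compared between genes. Salt-treated wild type stands in both tables, where its values differ by a factor of 1.10. Each table thus has a scale of its own, and ratios were formed within a table. Ratios are log2 ratios of FPKM + 1, which understate differences of low genes, and a ratio of at least 1 in size is called higher or lower, a 2-fold rule and not a test. Between 24170 and 24882 genes were above 0 in a group, and 5 FPKM of a 1 kb transcript stood for roughly 187 to 251 fragments. Fragment numbers here are estimates and carry counting error alone. SKIP had 39.2 FPKM in wild type without salt and 54.2 FPKM with it, and in the second table wild type had 49.0 and skip 41.6 FPKM, which does not check a mutation of unknown position. Marker genes of leaf and root were above 0 in every group. The summed level of 3 leaf markers was 26823 FPKM without and 20980 FPKM with salt, and that of 6 root markers was 164.5 and 23.8 FPKM, with all 6 at least 2-fold lower. In the second table wild type had a leaf sum of 18983 and skip of 18213 FPKM, and the root sums were 21.5 and 24.9 FPKM. The root marker PHT1;1 shares 42.4% of its sequence with loci elsewhere, and the leaf marker CAB1 shares 22% with other loci. The sums stand for these genes and not for a whole organ. The part of the lower root markers in the results was not tested. In whole seedlings, fewer cells of a type and less RNA of these particular genes per cell cannot be told apart.

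In wild type, 6 of the 9 genes were at least 2-fold higher with salt and 0 were lower, where 6.04% of all genes were higher and 3.81% lower. The UGT73C3, UGT73C4, UGT73C1, UGT73B4, UGT73B5 and UGT74E2 genes were the ones past the rule. In skip against wild type, both with salt, 4 of 9 were at least 2-fold higher and 0 lower, where 1.63% of all genes were higher and 2.61% lower. These were UGT73C6, UGT73C5, UGT74E2 and UGT73C1. The genes were picked for such differences, so nothing is read from either count. The median log2 ratio of the 9 was 1.42 for salt and 0.79 for skip. That of all genes, those at 0 FPKM included, was 0 in both. Of 20309 genes at 1 FPKM or more in a group of the first table, 2027 were higher and 1277 lower with salt (median -0.01). Of 19764 such genes of the second table, 548 were higher and 875 lower in skip (median -0.08). By pattern, 4 of the 9 genes were past the rule with salt alone, 2 in skip alone, 2 in both and 1 in neither. The comparisons share the salt-treated wild type, so a low value there raises one ratio as it lowers the other.

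**Figure D1:**
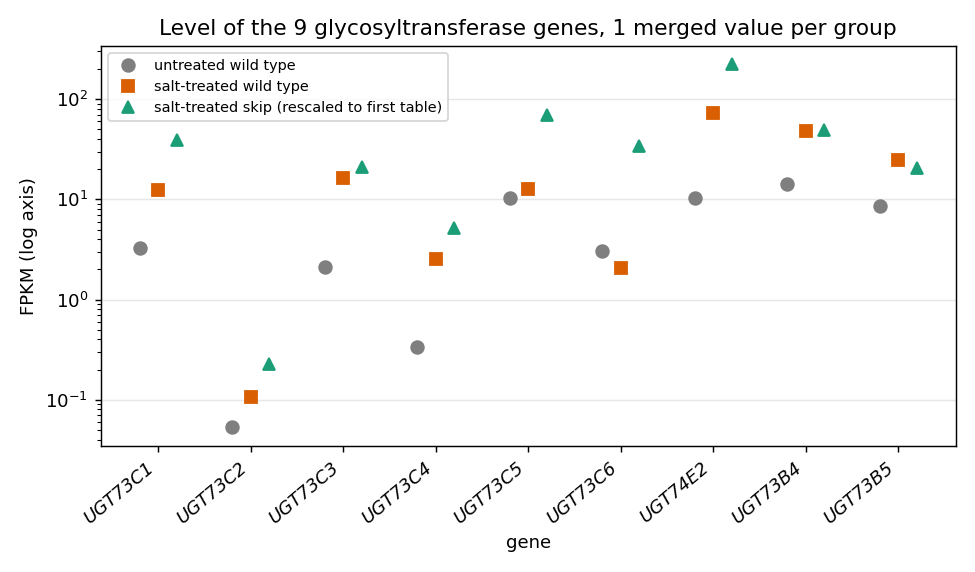
Level in FPKM (log axis) of each of the 9 genes in wild type without salt, wild type with salt and skip with salt, 1 merged value per group with no error bars. The skip values were multiplied by 1.10 to bring them to the scale of the first table. For UGT73C6 and UGT73C5, skip stands apart from both wild-type groups. For UGT73B4 and UGT73B5, both salt-treated groups stand apart from untreated wild type.

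The genes past the rule in skip alone were UGT73C6 and UGT73C5, which stand next to each other at one end of the array. Wild type had 3.06 FPKM of UGT73C6 without salt and 2.08 FPKM with salt (log2 ratio -0.40). With salt, wild type had 1.88 FPKM in the second table against 31.0 FPKM for skip, whose log2 ratio of 3.47 was the widest of the 9. The fragments behind them numbered about 191, 141, 140 and 1714 in turn. UGT73C6 was thus low in both wild-type groups and high in skip. The opposite-strand locus AT2G36792 was at 3.33 and 1.98 FPKM in wild type without and with salt, and at 1.79 and 1.31 FPKM in salt-treated wild type and skip, with log2 ratios of -0.54 and -0.27. How reads were split between these overlapping loci is the allocation of the authors' software, so the part of AT2G36792 in the UGT73C6 values was not tested.

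UGT73C5 had 10.4 FPKM in wild type without salt and 12.7 FPKM with salt (log2 ratio 0.26). In skip it had 62.4 FPKM against 11.5 FPKM for salt-treated wild type (log2 ratio 2.35). On FPKM itself the level was 1.22-fold with salt and 5.44-fold in skip. The loci on either side of the array did not share this pattern. SWC2 (AT2G36740), beyond UGT73C1, had log2 ratios of 0.42 for salt and -0.38 for skip, and AT2G36810, beyond UGT73C5, had 0.82 and -0.19.

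UGT74E2 and UGT73C1 were past the rule in both comparisons. Wild type had 10.3 FPKM of UGT74E2 without salt and 72.9 FPKM with salt, and the log2 ratio of 2.71 was the widest of the 9 for salt. Skip had 203.0 FPKM against 66.0 FPKM for salt-treated wild type (log2 ratio 1.61). UGT74E2 had the highest level of the 9 in both salt-treated groups. UGT73C1 was at 3.29 and 12.3 FPKM without and with salt (log2 ratio 1.63), and skip had 35.6 FPKM against 11.1 FPKM for wild type (1.59). In both genes the level was lowest in untreated wild type and highest in skip. UGT74E1 (AT1G05675), the neighbour of UGT74E2 on the same strand, was low, at 0.319 and 1.49 FPKM without and with salt (log2 ratio 0.92) and at 1.35 and 5.53 FPKM in wild type and skip (1.47).

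UGT73C3, UGT73C4, UGT73B4 and UGT73B5 were past the rule with salt alone. UGT73C3 was at 2.13 FPKM without and 16.5 FPKM with salt, a log2 ratio of 2.49, and skip had 18.9 FPKM against 14.96 FPKM for wild type (0.32). UGT73C4, its closest copy, was at 0.332 and 2.54 FPKM (1.41) and then at 2.30 and 4.73 FPKM (0.79). UGT73C4 rested on about 22 fragments in untreated wild type, so its untreated level is the less certain of the pair. On FPKM itself the salt changes of this pair were 7.77-fold and 7.66-fold. UGT73B4 was at 14.3 and 48.3 FPKM (1.69) and at 43.8 and 44.3 FPKM in wild type and skip (0.02). UGT73B5 was at 8.55 and 24.5 FPKM (1.42) and at 22.2 and 18.6 FPKM (-0.25), the only one of the 9 listed below wild type in skip. With 1 value per group it cannot be said whether these near-equal levels in wild type and skip differ.

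UGT73C2 was the remaining gene and lay near the floor of detection. It was at 0.0529 and 0.107 FPKM without and with salt, and at 0.0972 and 0.206 FPKM in wild type and skip. These values stand on about 3, 7, 7 and 11 fragments. Its log2 ratios were 0.07 and 0.14, and at this depth a change could not be seen. Of the 9 genes, 8 reached 1 FPKM in a group, and UGT73C2 did not.

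**Figure D2:**
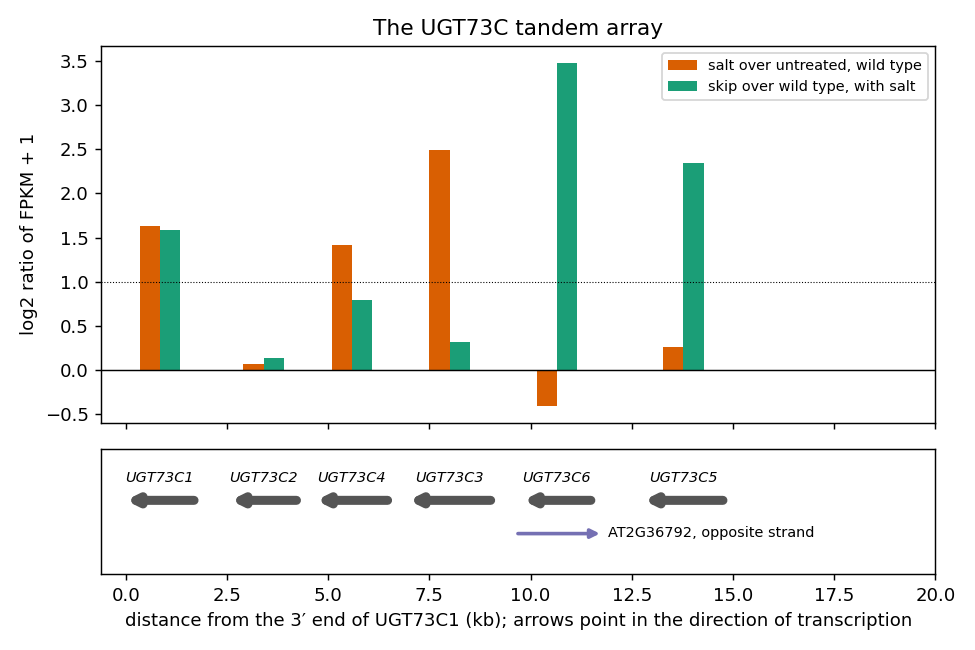
Log2 ratio of FPKM + 1 for salt (orange) and skip (green) of the 6 UGT73C genes, placed by distance in kb from the 3′ end of UGT73C1, with gene bodies as arrows below and the opposite-strand locus AT2G36792 under UGT73C6. The salt ratio is highest in UGT73C3 (2.49) and the skip ratio in the next gene, UGT73C6 (3.47).

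The make-up of the array differed between the groups. Its summed level in wild type was 19.3 FPKM without and 46.2 FPKM with salt, and in the second table skip had 152.8 FPKM against 41.8 FPKM for wild type. UGT73C5 gave 53.9% of the sum without salt, 27.4% in salt-treated wild type and 40.8% in skip. UGT73C3 gave 11.0%, 35.8% and 12.4% in the same order, and UGT73C6 15.9%, 4.50% and 20.3%. UGT73C3 was therefore the leading transcript of the array in salt-treated wild type, and UGT73C5 in the other groups.

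Set on 1 scale by the factor between the tables, the levels of salt-treated skip can be placed beside untreated wild type, although the tables were scaled separately. On that scale UGT73C6 was at 34.3 FPKM in skip against 3.06 FPKM in untreated wild type, UGT73C5 at 68.9 against 10.4 FPKM and UGT74E2 at 224 against 10.3 FPKM. All 9 ratios were above 0 and 8 were higher by the 2-fold rule, where 6.11% of all genes were higher and 6.49% lower, and the median log2 ratio of the 9 was 2.62. The order of the 9 levels also differed: in untreated wild type UGT73B4 (14.3 FPKM), UGT73C5 (10.4 FPKM) and UGT74E2 (10.3 FPKM) led, in salt-treated wild type UGT74E2, UGT73B4 and UGT73B5, and in skip UGT74E2, UGT73C5 and UGT73B4. The last 2 of the untreated leaders, 10.4 and 10.3 FPKM, have no replicate spread against which their order could be judged.

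Promoters are shown for 3 genes as examples from different patterns: UGT73C6 (skip alone), UGT74E2 (both comparisons) and UGT73C3 (salt alone). Each is the 250 bases before to 30 after the most upstream start annotated by RefSeq on TAIR10.1, on the minus strand, at chr2:15421837-15422116, chr1:1704809-1705088 and chr2:15419362-15419641. Capitals mark the mitochondrial dysfunction motif in the form searched here: CTTG, any 5 bases, CA, any base and G. NAC factors such as ANAC013 bind this motif. It was not found in the windows of UGT73C5 (skip alone) and UGT73C1 (both comparisons). The promoters shown are thus examples and do not stand for every gene of their pattern.
UGT73C6: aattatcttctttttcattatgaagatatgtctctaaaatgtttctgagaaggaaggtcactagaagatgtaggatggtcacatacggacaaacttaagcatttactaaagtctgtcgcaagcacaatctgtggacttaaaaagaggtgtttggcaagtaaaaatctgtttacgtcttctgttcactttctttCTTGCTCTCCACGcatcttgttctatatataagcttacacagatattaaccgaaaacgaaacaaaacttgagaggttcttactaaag
UGT74E2: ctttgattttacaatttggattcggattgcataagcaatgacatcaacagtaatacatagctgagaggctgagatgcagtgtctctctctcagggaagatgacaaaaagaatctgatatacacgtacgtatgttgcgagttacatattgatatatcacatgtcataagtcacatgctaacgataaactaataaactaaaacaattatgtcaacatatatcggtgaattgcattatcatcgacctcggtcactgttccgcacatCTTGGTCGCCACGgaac
UGT73C3: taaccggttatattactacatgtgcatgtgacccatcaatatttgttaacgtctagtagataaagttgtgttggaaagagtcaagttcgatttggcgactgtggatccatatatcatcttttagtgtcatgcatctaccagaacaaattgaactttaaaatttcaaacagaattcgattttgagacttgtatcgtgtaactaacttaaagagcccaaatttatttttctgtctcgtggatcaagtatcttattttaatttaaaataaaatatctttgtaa

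The motifs were searched on both strands of the 280-base windows of all 9 genes and of 30588 genes with an mRNA model on a nuclear chromosome. The mitochondrial dysfunction motif, in the form searched, was found in 2 of the 9, UGT73C6 and UGT74E2, and in 2.03% of all windows. It begins 57 bases before the start in UGT73C6 and at base 14 of the transcript in UGT74E2. In the 280 bases before the start codon, a window chosen after these results were seen, the same 2 genes held it, against 2.14% of 26686 genes. The other motifs were held by partly different genes in that window. TGACG, the core bound by TGA factors, was in 3 of the 9 (UGT73C5, UGT73B4 and UGT73B5) and in 21.1% of all windows; before the start codon it was in UGT73C3, UGT73C5 and UGT73B4 and in 21.4%. ACGTG, the core of ABA-responsive elements, was in 2 (UGT74E2 and UGT73B4) and in 24.1%, and before the start codon in 3 (UGT73C3, UGT73B4 and UGT73B5) and in 22.5%. TTGAC, the core bound by WRKY factors, which can overlap TGACG as in UGT73C5, was in 6 and in 48.0%, and before the start codon in 3 (UGT73C3, UGT73C4 and UGT74E2) and in 44.99%. The windows of UGT73C5 and UGT73C6 share an unbroken run of 47 bases, the longest of any pair, and the UGT73C6 motif is not in either window of UGT73C5. A match is a description of letters and does not show that a factor binds.

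**Figure D3:**
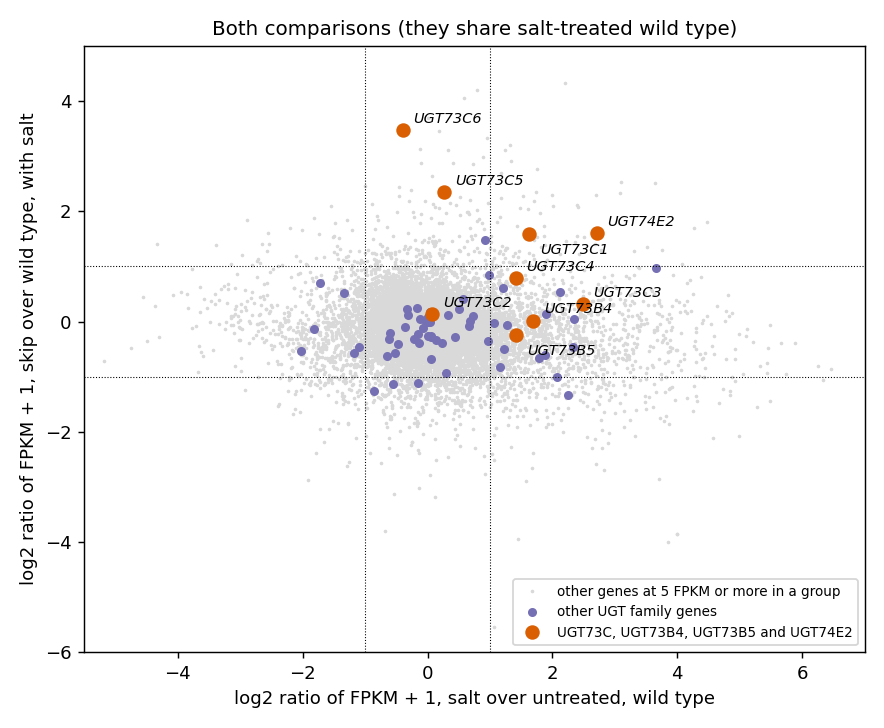
Log2 ratio of FPKM + 1 for salt in wild type (x axis) and for skip against wild type with salt (y axis) of genes at 5 FPKM or more in a group (grey), other UGT family genes (purple) and the 9 genes (orange); dotted lines mark the 2-fold rule. Both axes use the salt-treated wild type. UGT73C6 and UGT73C5 lie near 0 on the x axis and high on the y axis, and UGT73B4 and UGT73B5 the other way round.

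The other UGT73 genes were mostly higher with salt and not in skip. Of these 5, 4 were at least 2-fold higher with salt and 0 past the rule in skip, with median log2 ratios of 1.21 and -0.46. UGT73C7 (AT3G53160), the array's relative on chromosome 3, was at 0.858 and 8.30 FPKM without and with salt (2.32) and at 7.51 and 5.20 FPKM in wild type and skip (-0.46). UGT73B3 had ratios of 1.88 and -0.60, UGT73B2 of 1.21 and 0.60, UGT73D1 of 1.15 and -0.83, and UGT73B1 of -0.37 and -0.11. A locus that overlaps UGT73B1 covers 25.3% of it. Salt-treated skip was thus listed below wild type for 4 of the 5. With 1 value per group, the difference between these genes and the 9 was not tested.

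Relatives outside the UGT73 group were past the rule in both directions with salt. Of 10 other UGT74 and UGT75 genes, 2 were higher and 2 lower with salt, and 1 was higher in skip. The widest with salt were UGT74F2, a salicylate glucosyltransferase (2.34), and UGT74C1 (-1.73) and UGT74B1 (-1.34), both of glucosinolate synthesis, and the widest in skip were UGT74E1 (1.47), UGT74C1 (0.70) and UGT74B1 (0.52). Of 11 UGTs that act on hormones, 4 were higher with salt and 0 lower, and in skip 0 were higher and 1 lower. UGT74F2 led them with salt, then UGT76B1 (1.404) and UGT75B1 (1.27), and in skip UGT71C5, which acts on abscisic acid, was at -1.14, UGT85A1, which acts on cytokinins, at 0.85 and UGT76B1 at -0.22. All of UGT75B1 is shared with an overlapping locus. Of 13 UGTs of flavonoids and phenylpropanoids, 1 was higher and 2 lower with salt, and 0 were higher and 1 lower in skip. UGT72E1 (-1.82), UGT84A3 (1.79) and UGT72E3 (-1.18) were the widest with salt, and UGT72E2 (-1.25), UGT89C1 (-0.68) and UGT84A3 (-0.67) in skip, of which UGT89C1 shares 99.5% of its sequence with an overlapping locus.

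Genes that work beside these enzymes were listed next. Of 14 transcription factors of detoxification and mitochondrial stress, 5 were higher with salt and 1 in skip, with 0 lower in either. The NAC factors ANAC032 (3.35), ANAC081 (3.35) and ANAC102 (3.10) were the widest with salt. ANAC013, which binds the mitochondrial dysfunction motif, was at 4.32 and 27.2 FPKM without and with salt, and skip had 107.2 FPKM against 24.6 FPKM for wild type (2.08). It was the factor past the rule in skip, followed by ANAC017 (0.74) and SCL14 (0.34). The 6 TGA factors all had ratios under 1 in size in both comparisons. So did 30253 of all 33557 genes for salt and 32134 for skip, so this says nothing particular to the TGA factors. Of 18 other genes of detoxification and mitochondrial stress, 7 were higher and 1 lower with salt, and 6 were higher and 2 lower in skip, with medians of 0.80 and -0.10. The cytochrome P450 gene CYP81D8 (4.27) and the glutathione transferase genes GSTU4 (2.93) and GSTU2 (2.25) were the widest with salt, and GSTU2 shares 63.3% of its sequence with an overlapping locus. In skip the widest were the MATE carrier gene DTX3 (AT2G04050) at 4.32, UPOX (AT2G21640) at 4.20 and the vacuolar transporter gene ABCC3 at 3.21, which had 280 FPKM against 29.4 FPKM for wild type. AOX1A, the alternative oxidase of mitochondria, had 543 FPKM in skip against 127 FPKM (2.09). The 2 genes of this list that were lower in skip were GSTU2 (-1.29) and GSTU7 (-1.05). GSTU7 shares 55.7% of its sequence with overlapping loci.

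Of 8 genes of brassinosteroid synthesis and inactivation, which handle a substrate of UGT73C5 and UGT73C6, 0 were past the rule in either comparison. Of all 33557 genes, 30253 for salt and 32134 for skip also lay within it, so this count says nothing particular to the list. The widest were CPD (-0.91), BR6OX1 (-0.59) and SOB7 (0.50) with salt, and BR6OX2 (0.68), BEN1 (-0.66) and SOB7 (-0.34) in skip, of which SOB7 shares 23.8% of its sequence with an overlapping locus. Of 8 reference genes, 0 were past the rule in either comparison, and the widest were ACT2 (-0.93), UBQ10 (0.52) and EF1A (-0.48) with salt and GAPC1 (0.81), EF1A (0.42) and UBC9 (-0.32) in skip.

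**Figure D4:**
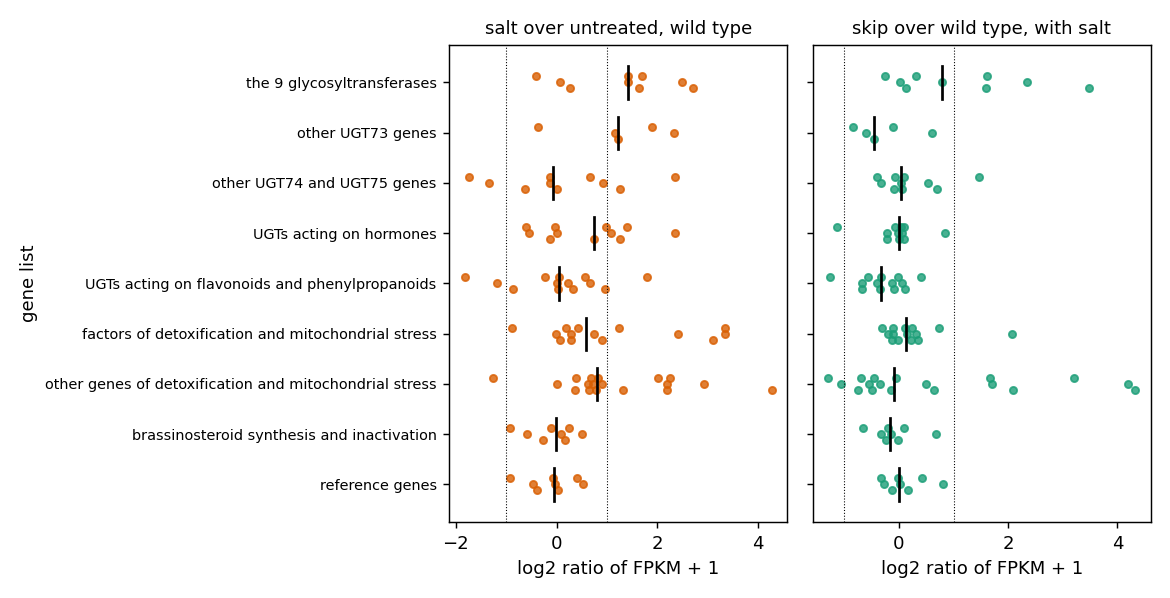
Log2 ratio of FPKM + 1 of every gene of each list for salt (left) and skip (right); each point is 1 gene, black bars are list medians and dotted lines mark the 2-fold rule. The median of the 9 glycosyltransferases is 1.42 on the left and 0.79 on the right, and those of the other UGT73 genes are 1.21 and -0.46.

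Likeness was measured by the distance between the 2 log2 ratios of a gene and the median of the 9 (1.42 and 0.79), over 15909 other nuclear genes at 5 FPKM or more in a group. The nearest were AT4G37900 (distance 0.04), AtS40-3 (AT4G18980, 0.09), PIF3 (AT1G09530, 0.13), AT3G27025 (0.13) and HSF A4A (AT4G18880, 0.14). PIF3, a phytochrome-interacting factor, was at 8.01 and 22.8 FPKM without and with salt and at 20.6 and 33.4 FPKM in wild type and skip. 3 groups stand behind this measure, and the 9 genes themselves spread widely around their median.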

How the data were processed

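Per the submitters' processing notes, reads were handled with TopHat, a spliced aligner, and Cufflinks, which estimates transcript levels, on the TAIR10 genome; their versions and the way 2 replicates were merged were not given there. The deposited values are FPKM of the authors, 1 per gene and group, a unit inferred from the values and the tools, since the 2 tables name none. All value columns were used.

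Python 3.11.15, pandas 2.3.3 and Biopython 1.88 were used. Log2 ratios of FPKM + 1 were formed within each table, without a filter. With 1 value per group there is no spread between replicates, no p-value and no test; a size rule of 2-fold replaces them, and the ratio function was tested on simulated data. The planned settings were a pseudocount of 0.1 or 5, centring, leaving out 1890 organelle, rRNA and short features, a 1.5-fold rule, a filter at 1 FPKM, and leaving out genes that share sequence.

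Salt-treated wild type differed between the tables by a median factor of 1.10 over 24882 genes, and 24822 lay within 0.1% of it. Fragments were estimated from steps in the low values, assuming fragments of 200 nt. Of the low values, 52.2% to 70.6% lay near whole steps, against 30% for evenly spread values and a fixed step. The step was fitted to these same values, so 30% is not its level by chance. Whole reads were not recovered and no count test was run.

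Sequences, gene models, 50-base overlaps and promoters came from RefSeq's TAIR10.1, whose name differs from the authors' build; genes were matched by identifier, and all coordinates are those of TAIR10.1. The names UGT73C3, UGT73C4 and UGT74E1, which that annotation does not list, are the customary ones for their identifiers. The members and lists were chosen with earlier results of these data known. Per list and comparison, the 3 widest genes were named, with all 9 members, the 5 other UGT73 genes and the 5 genes nearest the median member; AOX1A, the neighbouring loci and the overlapping locus were named after their values were seen.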

Additional observations from a re-analysis of the deposited data

How the results depend on the processing

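No paired analysis was possible because each group has 1 merged value per gene. For the same reason no replicate could be left out. The count of members past the rule was 5 or 6 for salt and 3 to 5 for skip under every planned setting. The 3 for skip came from leaving out members that share at least 20% of their 50-base stretches with another locus. That setting drops UGT73C6 alone, the gene with the widest skip ratio, because all of it is shared with AT2G36792. The other members share up to 18.5% (UGT73B4) and stay in, so the setting is not free of shared sequence. The median log2 ratio of the members for salt stayed between 1.06 and 1.75. That for skip, 0.79, passed 1 with a pseudocount of 0.1 (1.01), where UGT73C4 is the middle gene, and with the filter at 1 FPKM (1.19), which removes UGT73C2. It was 0.41 with a pseudocount of 5. Among single members that a setting kept, the call changed for UGT73C4 alone. With a pseudocount of 5 its salt ratio was 0.50, and in skip it passed with a pseudocount of 0.1 and under the 1.5-fold rule. No ratio past the 2-fold rule turned its sign. Over all genes the counts depended on the pseudocount and the size rule: with a pseudocount of 0.1, 3199 were higher and 2432 lower for salt and 1241 and 2047 for skip, against 2027, 1277, 548 and 875; with 5 they were 1251, 592, 252 and 294. Under the 1.5-fold rule they were 3743, 3267, 1512 and 2812. With centring they were 2007, 1285, 632 and 748. Without organelle, rRNA and short features they were 2061, 1147, 533 and 665, over 31667 genes. Depth limits UGT73C2 and the untreated level of UGT73C4.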

Other observations

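The UGT family was taken by name: an annotated or customary name of UGT, digits, a letter and digits. This gave 62 genes besides the 9, some of them already named. Genes of the family without such a name in the annotation or lists are not among them. Of these, 15 were at least 2-fold higher and 6 lower with salt, and 1 was higher and 5 lower in skip, with median log2 ratios of 0.04 and -0.17. The widest salt ratio among the 71 genes taken was that of UGT76E12 (AT3G46660), at 1.15 FPKM without and 26.2 FPKM with salt (3.66). It had 47.5 FPKM in skip against 23.7 FPKM for wild type (0.98, just short of the rule). Its relative UGT76E1 (AT5G59580) was also higher with salt, at 0.720 and 7.14 FPKM (2.24). Yet UGT76E1 had the lowest skip ratio of the 71, with 1.97 FPKM in skip against 6.47 FPKM for wild type (-1.33). The others lower in skip were UGT72E2 (-1.25), UGT71C5 (-1.14), UGT71C3 (-1.11) and UGT89B1 (-1.01). UGT71C1 had the lowest salt ratio of the 71, at 10.7 and 1.90 FPKM (-2.02). These genes were named after their values were seen.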
